A study of Rattus norvegicus with 12 samples.

Results

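The collagen crosslinking and maturation enzymes were followed across both ventricles of the rat heart, in hypoxia and in normoxia. The group was chosen by name and function: the lysyl oxidases Lox, Loxl1, Loxl2, Loxl3 and Loxl4, the lysyl hydroxylases Plod1, Plod2 and Plod3, the prolyl hydroxylase subunit P4ha1 and the collagen chaperone Serpinh1. All 10 were found, each under 1 entry, among the 23526 named genes of the table. RNA-seq was done on 12 libraries from 6 rats, and each rat gave 1 library from the right ventricle (RV) and 1 from the left ventricle (LV). The groups were RV-H and LV-H, from 3 adult male Sprague-Dawley rats of 3 to 4 months kept for 2 weeks at 10% O2 in a hypobaric chamber, and RV-N and LV-N, from 3 rats of the same strain, sex and age kept for 2 weeks in room air. The hypoxic rats carry the numbers 1, 2 and 4 and the normoxic rats the numbers 1, 2 and 3. The labels name no transgene or other treatment, and RNA came from the free wall of each ventricle after the atria had been removed. The libraries are of whole tissue, so a lower share of a cell type and less RNA per cell cannot be told apart in any level given here.

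Collagen is modified inside and then outside the cell before it becomes a load-bearing fibre. Inside the endoplasmic reticulum, prolyl 4-hydroxylases (catalytic subunit P4ha1) make the hydroxyproline that holds the triple helix together, lysyl hydroxylases (Plod1, Plod2, Plod3) hydroxylate lysines, and the chaperone Serpinh1 (HSP47) binds and stabilises the folded helix. Outside the cell, copper-dependent lysyl oxidases turn lysines and hydroxylysines of collagen and elastin into aldehydes, which condense into crosslinks between molecules. In the heart these enzymes are known chiefly as products of fibroblasts, and Lox, Plod2 and P4ha1 are known in human and mouse cells as targets of the hypoxia-inducible factors (HIF).

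Promoters are shown because the study compared hypoxia with normoxia and several of these genes are known HIF targets. RefSeq promoters of build GRCr8 were matched by symbol for 8 of the 10 members, and Lox and Loxl2 were not matched. The 250 bases before each start were searched on both strands for the HIF core motif. One form of that motif is ACGTG, and the other form searched was GCGTG. A match on the opposite strand reads here as the reverse complement of these letters. A match is a description of the letters, not of a bound site. Plod2 (chr8:101964068-101964317, + strand) held 4 matches and P4ha1 (chr20:27844796-27845045, + strand) held 2, while Loxl1 (chr8:67612225-67612474, − strand) and Serpinh1 (chr1:163062977-163063226, − strand) held 0. These 4 are printed, with the matches in capitals, as the members with the most matches and the members with the highest levels and no match.
Plod2: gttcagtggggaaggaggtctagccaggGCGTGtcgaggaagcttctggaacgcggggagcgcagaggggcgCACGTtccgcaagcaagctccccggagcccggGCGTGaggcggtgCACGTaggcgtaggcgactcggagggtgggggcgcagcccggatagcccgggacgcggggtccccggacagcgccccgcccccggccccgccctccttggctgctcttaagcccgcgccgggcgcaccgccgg
P4ha1: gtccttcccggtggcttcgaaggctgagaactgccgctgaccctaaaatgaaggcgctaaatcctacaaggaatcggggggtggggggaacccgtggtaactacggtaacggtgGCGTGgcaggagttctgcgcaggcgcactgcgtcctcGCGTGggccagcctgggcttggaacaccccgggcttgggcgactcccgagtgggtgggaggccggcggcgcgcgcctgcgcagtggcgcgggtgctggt
Loxl1: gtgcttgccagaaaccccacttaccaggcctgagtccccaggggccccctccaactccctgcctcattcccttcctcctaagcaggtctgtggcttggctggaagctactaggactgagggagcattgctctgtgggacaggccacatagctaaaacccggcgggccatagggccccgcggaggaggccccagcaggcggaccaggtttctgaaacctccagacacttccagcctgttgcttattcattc
Serpinh1: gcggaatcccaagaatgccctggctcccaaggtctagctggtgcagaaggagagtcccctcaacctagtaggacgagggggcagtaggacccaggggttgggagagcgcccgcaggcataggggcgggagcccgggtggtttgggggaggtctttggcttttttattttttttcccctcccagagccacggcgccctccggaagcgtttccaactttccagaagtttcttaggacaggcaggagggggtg
In Plod2 the matches began 222, 178, 146 and 133 bases before the start, and in P4ha1 136 and 99 bases before it. Loxl3, Plod1 and Plod3 had 1 match each and Loxl4 had 0, so 5 of the 8 promoters held the motif. Of all 33469 RefSeq promoters of this length, 36.7% held at least 1 match, 16% held 2 or more and 2.44% held 4 or more. The member promoters were also rich in G and C, with 60.4% to 74.8% of their bases against a median of 51.2% over all promoters, and a short motif of this composition is met more often in such sequence.

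Levels are given as TPM, a measure of transcript abundance per unit of transcript length, divided by the TMM factor of the library so that libraries can be compared (scaled TPM). Library totals ran between 21468274 and 39991848 estimated counts, and 13756 genes passed the filter on low counts, all 10 members among them. The 11 cardiac myocyte markers summed to between 47500 and 76600 scaled TPM, so each library carried cardiac muscle. These sums overlapped between RV and LV libraries, so they do not tell the ventricles apart. LV-H replicates 1 and 2 stood apart, in different markers. LV-H replicate 1 had a sum of 462 scaled TPM over the 6 atrial myocyte markers, against 25.9 and 37.9 in the other LV-H libraries and 33.2 to 41.3 in LV-N. Its atrial myosin light chains Myl4 (236 scaled TPM) and Myl7 (142 scaled TPM) led that sum. RV-N replicates 2 and 3 also had high sums, of 235 and 175 scaled TPM, led by sarcolipin, Sln (203 and 142 scaled TPM). Bmp10, the most restricted atrial marker of the list, was at 0 in 8 of the 12 libraries and low in the other 4. The sum over the 5 cartilage and valve markers was 6.73 scaled TPM in LV-H replicate 1 and 1.13 to 2.68 in the rest. The smooth muscle and pericyte sum of LV-H replicate 1 was 527 scaled TPM, against 273 and 332 in the other LV-H libraries. LV-H replicate 2 had the highest sum over the 5 erythroid markers found, 35400 scaled TPM, against 6410 and 16200 in the other LV-H libraries and 3630 to 10400 in the other groups. The part of this tissue content in the levels of the members was not tested, and results that rest on LV-H replicate 1 are given with and without it.

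The members spanned a wide range of levels. Serpinh1 led with a mean of 149 scaled TPM over the 12 libraries, followed by Loxl1 and P4ha1 at 16.5 each, Plod1 at 14.8, Plod3 at 8.12, Loxl2 at 5.84, Plod2 at 5.66, Lox at 3.47, Loxl3 at 1.75 and Loxl4 at 0.958. In RV-N the order below Serpinh1 (109 ± 5.77) was P4ha1 (13.1 ± 1.19), Plod1 (12.6 ± 2.16), Loxl1 (9.78 ± 1.11), Plod3 (7.5 ± 1.43), Loxl2 (4.13 ± 0.632), Plod2 (3.95 ± 0.181), Lox (2.81 ± 0.459), Loxl3 (1.6 ± 0.0891) and Loxl4 (0.831 ± 0.263 scaled TPM, mean ± SD, n = 3). P4ha1 and Plod1 lay within their spread of each other, as did Loxl2 and Plod2, and every other step in that order was larger than the SD of either neighbour. In RV-H, Loxl1 (33.8 ± 13.3 scaled TPM) stood second, ahead of P4ha1 (21.4 ± 3.73) and Plod1 (18 ± 1.47), though these steps were within the SD of Loxl1 or of P4ha1. Loxl1 varied most between libraries, with its highest level 9.09 times its lowest, and Plod3 varied least, at 1.54 times. RV-H had the highest mean of the 4 groups for 9 of the members, and LV-H had it for Loxl4. LV-N had the lowest mean for 8.

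**Figure D1:**
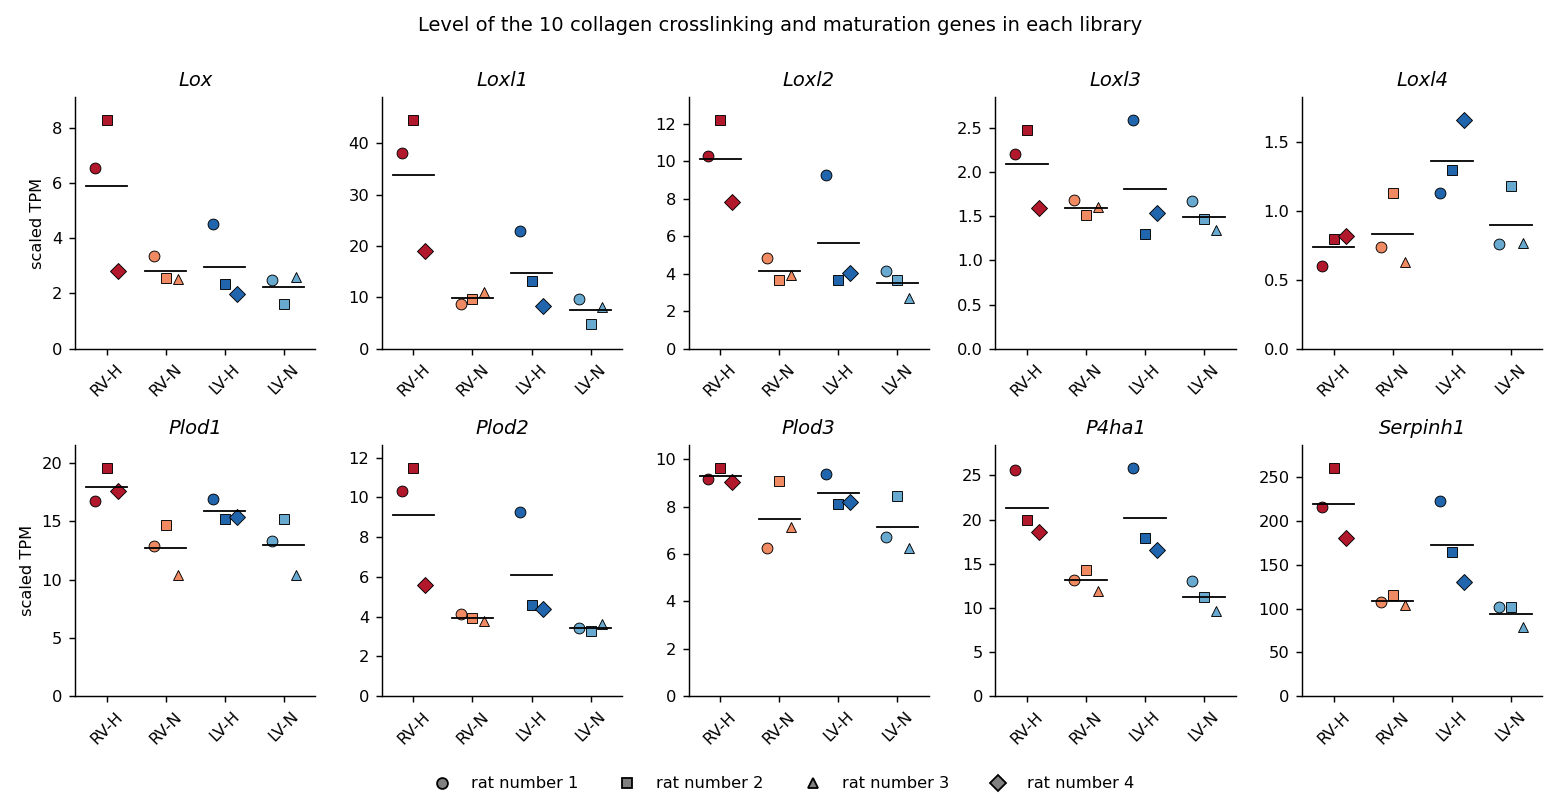
Scaled TPM (vertical axes, linear from 0) of each member in the 12 libraries, by group from left to right RV-H, RV-N, LV-H and LV-N. Points are libraries, with the shape giving the rat number, and black lines are group means. RV-H lies highest for most members, RV-H replicate 4 is the lowest of its group for 8 members, and LV-H replicate 1 is the highest of its group for 9.

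Hypoxia was compared with normoxia in the RV first. Of the 10 members, 6 were called higher in RV-H than in RV-N (Loxl1, Loxl2, Plod1, Plod2, P4ha1 and Serpinh1) and 0 were called lower, by edgeR's quasi-likelihood test with Benjamini-Hochberg adjustment over all genes and a threshold of 0.05. Over all genes tested, 7.43% were called higher and 7.6% lower. The median log2 fold change of the members was 0.86, beside a median of 0.00 over all genes. In 6 members every RV-H library lay above every RV-N library, which held for 18.7% of all genes tested, and these were the same 6 genes.

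Among the lysyl oxidases, Loxl1, which acts mainly on elastin, had the largest change. It had 38, 44.5 and 19 scaled TPM in RV-H replicates 1, 2 and 4, against 8.76, 9.63 and 11 in RV-N replicates 1, 2 and 3. All 3 hypoxic libraries lay above the normoxic ones, with replicate 4 well below the other 2. The log2 fold change was 1.79 ± 0.39 (standard error), a 3.46-fold difference, with an adjusted p of 0.0149 by edgeR's quasi-likelihood test. Loxl2, which crosslinks collagen IV of basement membranes as well as fibrillar collagen, had 10.3, 12.2 and 7.83 scaled TPM in RV-H and 4.84, 3.64 and 3.91 in RV-N. The groups did not overlap, and the log2 fold change was 1.29 ± 0.32 with an edgeR adjusted p of 0.0232.

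Lox, the founding member of the family and an oxidase of both collagen and elastin, had 6.56, 8.28 and 2.8 scaled TPM in RV-H and 3.34, 2.56 and 2.53 in RV-N. RV-H replicate 4 fell within the normoxic range, so the groups overlapped. The log2 fold change of 1.08 ± 0.38 did not pass (edgeR adjusted p = 0.082). Without RV-H replicate 4 it was 1.40 with an edgeR adjusted p of 0.0143, so this library decided the call. Loxl3 had 2.21, 2.48 and 1.59 scaled TPM in RV-H against 1.68, 1.51 and 1.6 in RV-N, with a log2 fold change of 0.40 ± 0.25 (edgeR adjusted p = 0.304). Loxl4 had 0.6, 0.793 and 0.821 scaled TPM in RV-H against 0.736, 1.13 and 0.628 in RV-N. Its log2 fold change of −0.16 ± 0.30 was the only negative one of the 10, with overlapping groups and an edgeR adjusted p of 0.768. Loxl4 rested on 16 to 41 estimated counts per library and Loxl3 on 27 to 82, the fewest of the members.

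Among the lysyl hydroxylases, Plod2, the enzyme of telopeptide lysines and of the hydroxylysine-derived crosslinks of stiff collagen, changed most. It had 10.3, 11.5 and 5.6 scaled TPM in RV-H and 4.14, 3.92 and 3.78 in RV-N. The normoxic libraries were close together, and all hypoxic libraries lay above them, replicate 4 by the least. The log2 fold change was 1.22 ± 0.30 with an edgeR adjusted p of 0.0228. Plod1, which hydroxylates lysines of the triple helix, had 16.7, 19.6 and 17.6 scaled TPM in RV-H against 12.9, 14.7 and 10.4 in RV-N. The groups were apart by a small margin, and the log2 fold change was 0.51 ± 0.15 with an edgeR adjusted p of 0.0431. Plod3, which also glycosylates hydroxylysine, had 9.18, 9.65 and 9.04 scaled TPM in RV-H and 6.27, 9.06 and 7.16 in RV-N. RV-N replicate 2 reached the hypoxic range, and the log2 fold change of 0.32 ± 0.14 did not pass (edgeR adjusted p = 0.158).

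The prolyl hydroxylase subunit P4ha1 and the chaperone Serpinh1 both rose. P4ha1 had 25.6, 19.9 and 18.6 scaled TPM in RV-H and 13.2, 14.3 and 11.9 in RV-N. No library of one group reached the other, and the log2 fold change was 0.71 ± 0.18 (edgeR adjusted p = 0.0274). Serpinh1 had 216, 261 and 180 scaled TPM in RV-H and 108, 115 and 104 in RV-N. The lowest hypoxic library stood far above the highest normoxic one, and the 2.01-fold difference (log2 1.01 ± 0.19) had the smallest adjusted p of the members, 0.00966 by edgeR's quasi-likelihood test.

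With 3 libraries per group, several of these calls were lost in fits with 1 library fewer, while the log2 fold changes stayed positive. Over the 12 such fits they were 1.56 to 2.07 for Loxl1, 1.15 to 1.44 for Loxl2, 1.03 to 1.47 for Plod2, 0.88 to 1.13 for Serpinh1, 0.57 to 0.80 for P4ha1 and 0.39 to 0.63 for Plod1. Of the 6 members called, only Serpinh1 was still called when RV-H replicate 1, RV-H replicate 2 or RV-N replicate 1 was left out, and 2 were called without RV-N replicate 3. Serpinh1 was called in all 12 fits that left out 1 library, Loxl1 in 9, P4ha1 in 8, Loxl2 and Plod2 in 7 each and Plod1 in 5. Plod1 was the least firm of the 6: its edgeR adjusted p was 0.0606 when libraries were scaled by their totals.

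The balance within the lysyl oxidase family shifted along with its amount. The summed TPM of the 5 lysyl oxidases was 32 to 68.2 scaled TPM in RV-H and 18.5 to 19.6 in RV-N. Loxl1 made up 65.9%, 65.2% and 59.3% of that sum in RV-H replicates 1, 2 and 4, against 45.2%, 52.2% and 55.8% in RV-N. Every hypoxic library had a larger Loxl1 share than every normoxic one. Loxl3 made up 3.64% to 4.95% in RV-H and 8.15% to 8.69% in RV-N, and Loxl4 1.04% to 2.56% in RV-H and 3.2% to 6.12% in RV-N. Both minor members thus held smaller shares in every RV-H library, while the shares of Loxl2 overlapped (17.8% to 24.4% in RV-H, 19.7% to 25% in RV-N). Lox also held a smaller share in every RV-H library, with 8.75% to 12.1% in RV-H and 12.9% to 17.2% in RV-N. The shares of a library add up to the whole, so a larger Loxl1 share lowers the others without a fall in their own levels. Shares are ratios within a library, so they do not depend on scaling, and they were not tested.

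Among the lysyl hydroxylases, Plod2 made up 28.4%, 28.3% and 17.4% of the summed TPM in RV-H replicates 1, 2 and 4, against 17.8%, 14.2% and 17.7% in RV-N. Replicates 1 and 2 of RV-H stood above all normoxic libraries and replicate 4 did not. In LV-H replicate 1 the Plod2 share was 26.1%, against 16.5% and 15.7% in the other LV-H libraries and 12.3% to 17.8% in LV-N. The Loxl1 share in LV-H, 47.1% to 60.6%, overlapped that in LV-N, 38.3% to 52.4%.

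**Figure D2:**
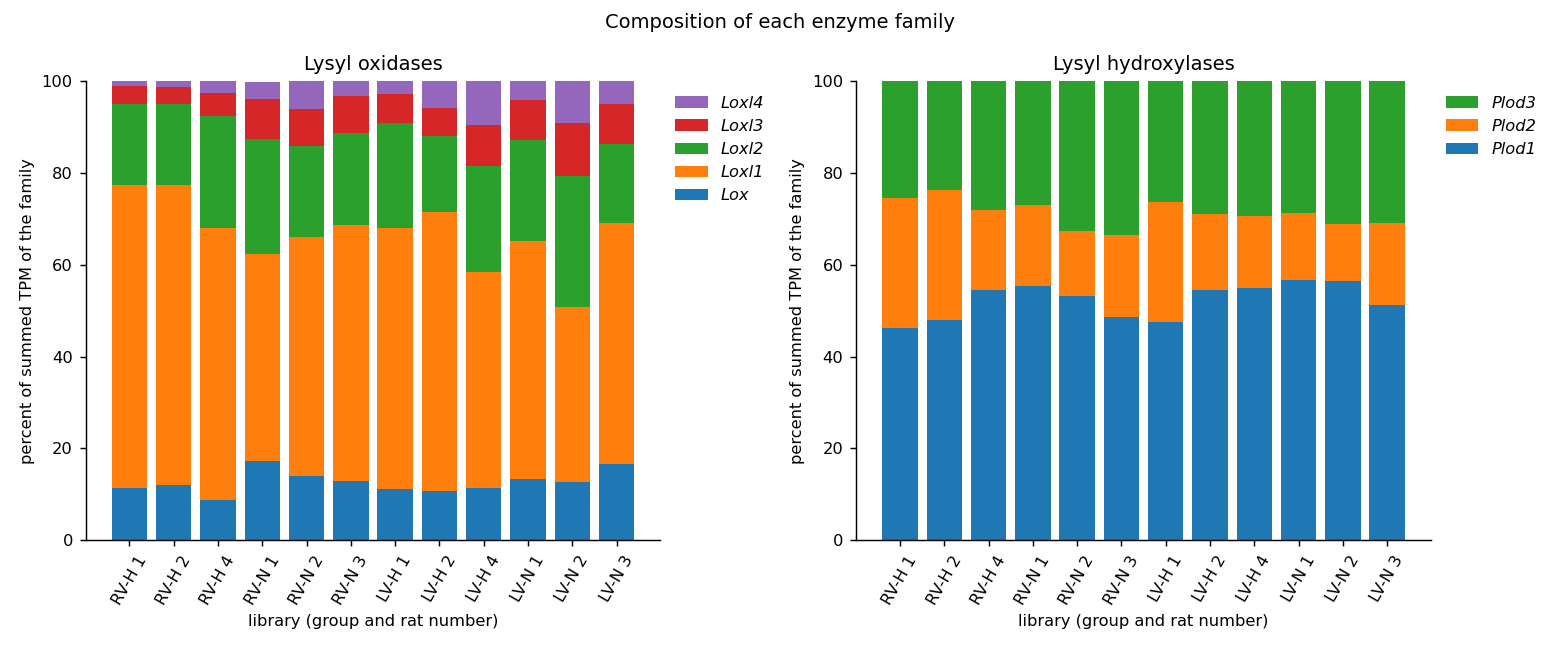
Percent of the summed TPM of the 5 lysyl oxidases (left) and of the 3 lysyl hydroxylases (right) held by each gene (stacked bars, vertical axes from 0 to 100%) in each library, in the order RV-H, RV-N, LV-H and LV-N. Loxl1 takes 59.3% to 65.9% of the lysyl oxidases in RV-H and 45.2% to 55.8% in RV-N, and Plod2 reaches 28.4% of the lysyl hydroxylases in RV-H.

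The levels of the members were also set against those of fibrillar collagens. The summed level of Col1a1 and Col3a1, the chains of collagen I and III with an entry in the table, was 565, 725 and 315 scaled TPM in RV-H and 216, 265 and 198 in RV-N. All RV-H libraries lay above all RV-N libraries, replicate 4 again by the least. Relative to this sum, Loxl1 was higher in RV-H, at a mean log2 ratio of −3.99 (−4.05 to −3.89) against −4.53 (−4.79 to −4.18) in RV-N, with no overlap. Elastin, on which Loxl1 mainly acts, is not part of this sum. Its gene Eln had a log2 fold change of 1.63 in RV-H against RV-N (edgeR adjusted p = 0.0185), beside 1.79 for Loxl1. Loxl3 was lower relative to collagen, at −7.94 (−8.19 to −7.64) in RV-H and −7.14 (−7.46 to −6.95) in RV-N. Loxl4 was lower too, at −9.44 (−9.88 to −8.59) in RV-H and −8.13 (−8.30 to −7.88) in RV-N. Plod3, at −5.76 (−6.23 to −5.12) in RV-H and −4.92 (−5.11 to −4.79) in RV-N, also did not overlap. The ratio of Plod2 was much alike in both groups, with means of −5.86 in RV-H and −5.83 in RV-N, and so was that of Loxl2, −5.67 in RV-H and −5.78 in RV-N. Plod1 had a lower mean ratio in RV-H, −4.82 against −4.17 in RV-N, and so did P4ha1, −4.58 in RV-H against −4.11 in RV-N. Smaller steps in the same direction were seen for Lox, −6.56 in RV-H against −6.34 in RV-N, and Serpinh1, −1.23 in RV-H against −1.04 in RV-N. The ranges of RV-H and RV-N overlapped in each of these genes. Because the collagen sum was higher in RV-H, a member that changed less than this sum has a lower ratio there. Loxl3, Loxl4 and Plod3 themselves were not called between RV-H and RV-N by edgeR. The share of all genes with ratios that did not overlap was not counted. Ratios were described and not tested.

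**Figure D3:**
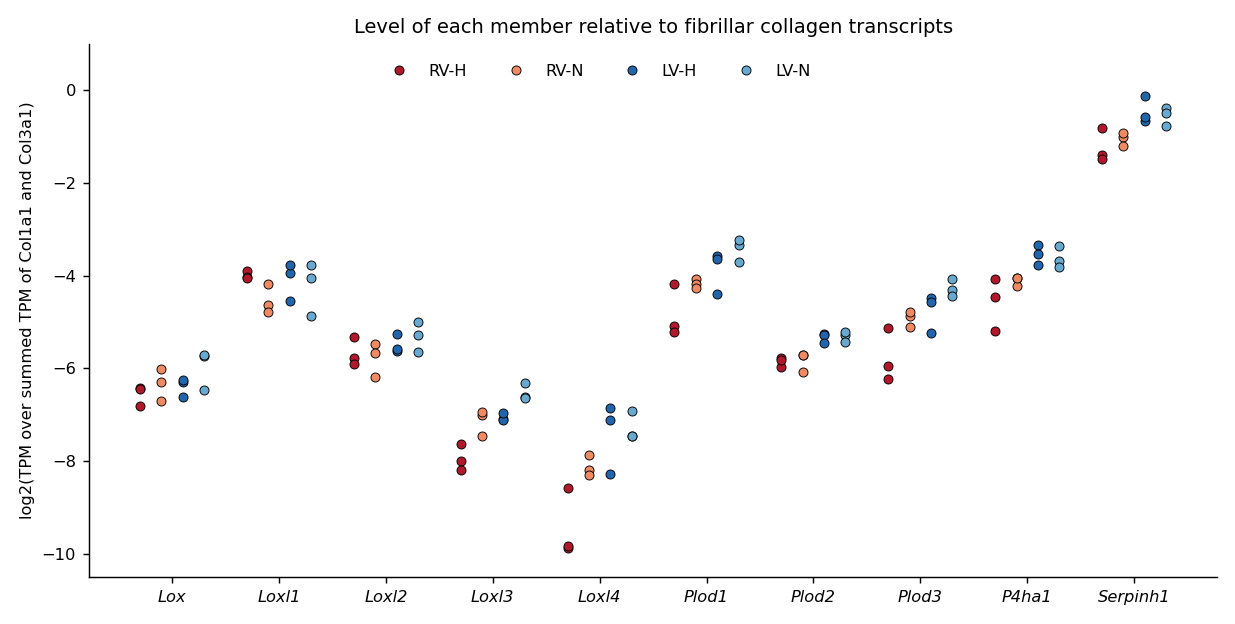
Log2 ratio of the TPM of each member to the summed TPM of Col1a1 and Col3a1 (vertical axis, log2 scale) in each library, coloured by group in the order RV-H, RV-N, LV-H and LV-N. Loxl1 is the member whose ratio is higher in every RV-H library than in every RV-N library. The ratios of Loxl3, Loxl4 and Plod3 are lower in every RV-H library, where the collagen sum is higher.

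In the LV, hypoxia against normoxia gave 0 members called higher and 0 called lower by edgeR's quasi-likelihood test, where 0.698% of all genes were called higher and 0.669% lower. Before adjustment, 4 members were higher at p under 0.05 and 0 were lower, beside 8.72% and 8.87% of all genes. DESeq2 called 2 members higher, beside 2.29% of all genes, and limma on log2(TPM + 1) called 0. The median log2 fold change of the members was 0.66, beside 0.01 over all genes, and all 10 were positive. In 4 members (Plod1, Plod2, P4ha1 and Serpinh1) every LV-H library lay above every LV-N library, against 10.2% of all genes.

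P4ha1 and Serpinh1 came closest to a call in the LV. P4ha1 had 25.9, 17.9 and 16.6 scaled TPM in LV-H replicates 1, 2 and 4, against 13, 11.2 and 9.61 in LV-N. All hypoxic libraries were above the normoxic ones, with replicate 1 far ahead. The log2 fold change was 0.84 ± 0.19 with an edgeR adjusted p of 0.0557. Serpinh1 had 223, 165 and 130 scaled TPM in LV-H and 102, 102 and 78.7 in LV-N, a log2 fold change of 0.87 ± 0.19 with an edgeR adjusted p of 0.056. Both calls turned on the tool: DESeq2 gave adjusted p-values of 0.00223 for P4ha1 and 0.000829 for Serpinh1. With a filter of 1 CPM in 3 libraries, edgeR gave 0.0497 for P4ha1 and 0.0499 for Serpinh1, beside 0.913% of genes called higher. Without LV-H replicate 1 the log2 fold changes were 0.62 for P4ha1 (edgeR adjusted p = 0.133) and 0.65 for Serpinh1 (edgeR adjusted p = 0.138).

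For 5 of the other members the LV values rested largely on LV-H replicate 1. Lox had 4.5, 2.36 and 1.97 scaled TPM in LV-H and 2.5, 1.61 and 2.58 in LV-N. Loxl1 had 22.9, 13.2 and 8.23 scaled TPM in LV-H and 9.73, 4.9 and 8.13 in LV-N. Plod2 had 9.26, 4.61 and 4.4 scaled TPM in LV-H and 3.44, 3.3 and 3.61 in LV-N. In Lox, Loxl1 and Plod2, LV-H replicate 1 lay within the RV-H range and the other LV-H libraries lay below it. Several fibroblast markers, though not all, were also highest in LV-H replicate 1. Lum was at 147 scaled TPM in LV-H replicate 1 and at 91.1 and 73.8 in replicates 2 and 4, and Thy1 at 4.82 in replicate 1 and at 1.02 and 1.18 in replicates 2 and 4. Tcf21 (14.6, 17 and 16 scaled TPM in LV-H replicates 1, 2 and 4) and Gsn (672, 661 and 810) were not highest in replicate 1. The part of these marker levels in the members' values was not tested. The log2 fold changes with and without that library were 0.40 and −0.05 for Lox, 0.97 and 0.50 for Loxl1, 0.71 and 0.16 for Loxl2, 0.30 and −0.05 for Loxl3, 0.83 and 0.39 for Plod2, 0.29 and 0.24 for Plod1, and 0.26 and 0.20 for Plod3, and none passed either way by edgeR. The median over the members was 0.66 with it and 0.31 without it. Loxl4 went the other way: it had 1.13, 1.3 and 1.66 scaled TPM in LV-H and 0.759, 1.18 and 0.764 in LV-N, with replicate 1 the lowest of LV-H. Its log2 fold change was 0.61 ± 0.29 with LV-H replicate 1 (edgeR adjusted p = 0.311) and 0.75 without it (edgeR adjusted p = 0.328).

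**Figure D4:**
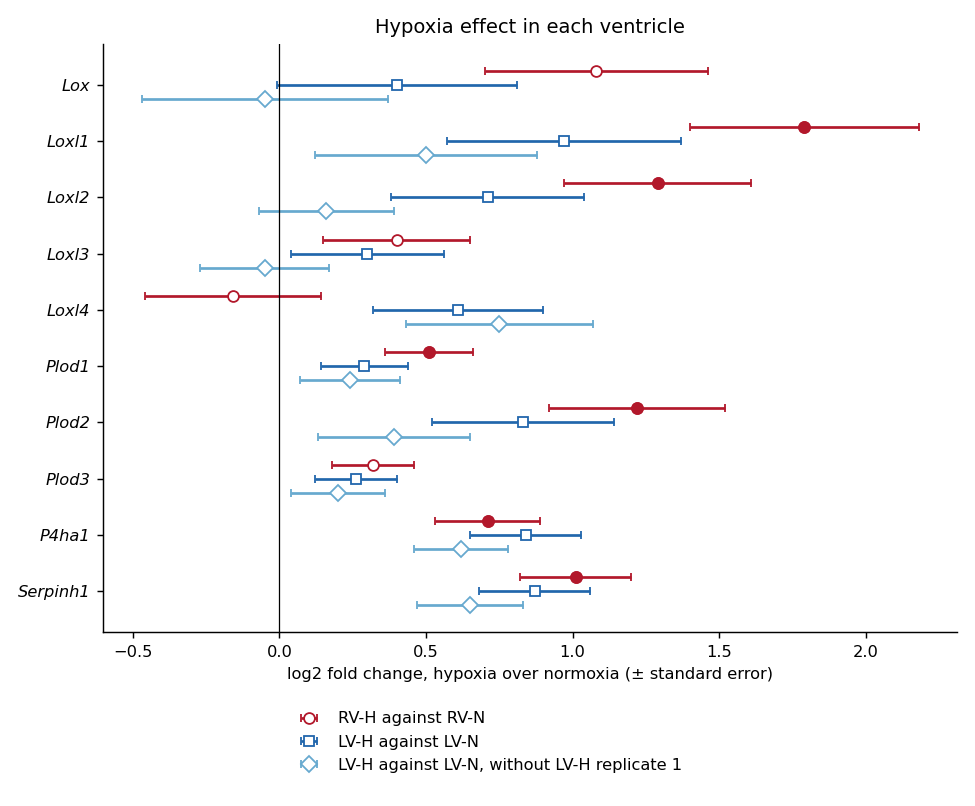
Log2 fold change of hypoxia over normoxia (horizontal axis) with its standard error for each member, in the RV (circles), in the LV (squares) and in the LV without LV-H replicate 1 (diamonds). Filled points passed an adjusted p of 0.05 by edgeR. The filled points are the 6 members called in the RV, and Lox, Loxl2 and Loxl3 lie near 0 in the LV once LV-H replicate 1 is left out.

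The chambers were also compared in normoxia. In RV-N against LV-N, 0 members were called higher and 0 lower by edgeR, where 0.0145% of all genes were called higher and 0.00727% lower. None of the 10 members had an unadjusted p under 0.05, beside 4.78% of all genes higher and 4.51% lower, and DESeq2 and limma also called 0. Log2 fold changes ran from −0.11 (Loxl4) to 0.37 (Loxl1), with a median of 0.20 beside 0.01 over all genes. Plod2 (4.14, 3.92 and 3.78 scaled TPM in RV-N against 3.44, 3.3 and 3.61 in LV-N) and Serpinh1 (108, 115 and 104 in RV-N against 102, 102 and 78.7 in LV-N) were the 2 members whose RV-N libraries all lay above the LV-N libraries, against 9.92% of all genes. The values of Plod1 (−0.04) and Loxl4 turned positive, at 0.14 and 0.07, when libraries were scaled by their totals, a scaling that moved the median of all genes to 0.19.

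In hypoxia, RV-H against LV-H gave 0 members called higher and 0 called lower by edgeR, where 0.174% of all genes were called higher and 0.276% lower. Before adjustment, Lox, Loxl1 and Loxl2 were higher at a threshold of 0.05 and Loxl4 was lower, beside 8.48% of all genes higher and 8.24% lower. Loxl1 had a log2 fold change of 1.20 ± 0.38 with an edgeR adjusted p of 0.156. DESeq2 called Loxl1 alone (adjusted p = 0.0448, beside 1.71% of genes called higher), and limma called 0. Without LV-H replicate 1, edgeR called Loxl1 (log2 fold change 1.68, adjusted p = 0.0442) and Loxl2 (1.41, adjusted p = 0.0178) higher, in a fit that called 2.34% of all genes higher. With the rat as a block, Loxl1 had an adjusted p of 0.0535 by edgeR, and of 0.0683 when LV-H replicate 1 was also left out, so the 2 calls made without that library were not kept under the block. Loxl2 then had 0.0667.

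Loxl4 was the one member that was lower in RV-H than in LV-H in every library. It had 0.6, 0.793 and 0.821 scaled TPM in RV-H and 1.13, 1.3 and 1.66 in LV-H, an order met in 8.46% of all genes. The log2 fold change of −0.88 ± 0.30 did not pass (edgeR adjusted p = 0.173, and 0.073 with the rat as a block). Within rats, RV minus LV was −0.80, −0.69 and −0.95 log2 CPM in the hypoxic rats 1, 2 and 4, against −0.01, −0.05 and −0.22 in the normoxic rats 1, 2 and 3. Both sets were negative and did not overlap, but the share of all genes with such a pattern was not counted. The hypoxia effect in the RV minus that in the LV did not pass for Loxl4 (edgeR adjusted p = 0.692).

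Lox, Loxl1, Loxl2 and Plod2 were higher in the RV than in the LV of all 3 hypoxic rats, an order met in 21.7% of all genes. RV minus LV was 0.54, 1.79 and 0.49 log2 CPM for Lox in the hypoxic rats 1, 2 and 4, against 0.41, 0.62 and −0.02 in the normoxic rats. For Loxl1 it was 0.73, 1.75 and 1.20 in the hypoxic rats and −0.15, 0.96 and 0.43 in the normoxic rats. For Loxl2 it was 0.15, 1.71 and 0.93 in the hypoxic rats and 0.23, 0.01 and 0.54 in the normoxic rats. Plod2 had 0.15, 1.30 and 0.35 in the hypoxic rats and 0.27, 0.24 and 0.06 in the normoxic rats. Loxl2 and Plod2 were thus higher in the RV of all 6 rats, and the share of all genes with that order was not counted. In the 3 normoxic rats 5 members were higher in every RV, beside 20.5% of all genes. Rat 2 gave the widest gap between its ventricles in all 4 genes, and rat 1, whose LV library is LV-H replicate 1, gave the smallest of the hypoxic rats for Loxl1, Loxl2 and Plod2. P4ha1 showed almost no gap in the hypoxic rats, at −0.01, 0.16 and 0.17, against 0.02, 0.35 and 0.31 in the normoxic rats.

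**Figure D5:**
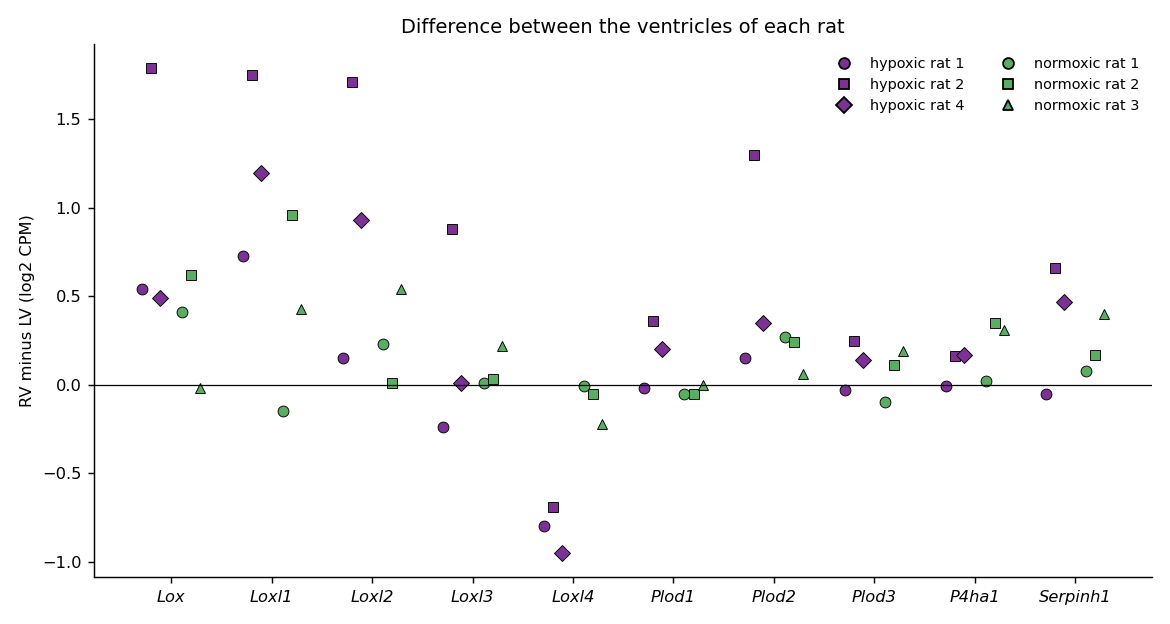
RV minus LV of the same rat in log2 CPM (vertical axis) for each member, with the 3 hypoxic rats left (purple) and the 3 normoxic rats right (green), each point 1 rat. Loxl4 lies between −0.95 and −0.69 in the hypoxic rats and between −0.22 and −0.01 in the normoxic rats, and the hypoxic rat 2 has the widest gaps for Lox, Loxl1 and Loxl2.

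Whether hypoxia acted differently on the chambers was tested as the effect in the RV minus that in the LV. By edgeR's quasi-likelihood test 0 members were called higher and 0 lower, as were 0% of all genes in either direction. Before adjustment, 3.93% of all genes were higher and 3.67% lower at a threshold of 0.05, with 0 members among them. DESeq2 and limma called 0 members as well. The difference was 0.82 for Loxl1 (95% interval −0.39 to 2.03), 0.68 for Lox (−0.55 to 1.91), 0.58 for Loxl2 (−0.43 to 1.59) and 0.39 for Plod2 (−0.55 to 1.34) on the log2 scale. For Serpinh1 it was 0.13 (−0.46 to 0.73), for P4ha1 −0.13 (−0.70 to 0.44) and for Loxl4 −0.77 (−1.70 to 0.16). The intervals of the lysyl oxidases are wide, so the calls in the RV and their absence in the LV are not shown to differ. RV-H and LV-H come from the same rats, and the 2 hypoxia comparisons share no library.

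The steps around these enzymes were followed through lists of pathway genes. Of 17 genes of prolyl hydroxylation and folding in the endoplasmic reticulum, 5 were called higher in RV-H than in RV-N and 0 lower by edgeR, with a median log2 fold change of 0.33. The leading genes were Sparc, a collagen-binding matricellular protein (0.96, adjusted p = 0.00597), Ppib, a proline isomerase of the collagen helix (0.57, adjusted p = 0.0115), Pdia3, a disulfide isomerase (0.52, adjusted p = 0.0211), and P3h3, a 3-hydroxylase family member (0.83, adjusted p = 0.0261). Of 15 genes of propeptide removal and fibril assembly, 7 rose and 0 fell. Among them were Tgm2, a transglutaminase that crosslinks matrix by another chemistry (1.31, adjusted p = 0.00638), Pcolce, the enhancer of procollagen C-proteinase (1.07, adjusted p = 0.0177), Bmp1, that proteinase and also the protease that activates Lox (0.75, adjusted p = 0.0259), and the small proteoglycan Bgn (1.52, adjusted p = 0.0305). The list of procollagen export had its edgeR calls in the other direction: of 8 genes 0 rose and 3 fell. These were Mia3, the cargo receptor TANGO1 (−0.33, adjusted p = 0.0259), and its partner Ctage5 (−0.41, adjusted p = 0.0425). The third was Klhl12, a ubiquitin ligase adaptor for large carriers (−0.38, adjusted p = 0.0456). Kdelr2 of this list was positive and not called (0.27, adjusted p = 0.131). All values are edgeR log2 fold changes, and the RV background stays at 7.43% higher and 7.6% lower. DESeq2 called 8 genes of folding and 7 of fibril assembly higher and 2 of export lower. With limma on log2(TPM + 1) these counts were 3, 4 and 0. The share of all genes that DESeq2 or limma called in RV-H against RV-N was not counted.

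Of 10 crosslinked substrates, 3 rose in RV-H and 0 fell by edgeR: elastin, Eln (1.63, adjusted p = 0.0185), Col3a1 (1.29, adjusted p = 0.0186) and Col4a1 of basement membrane (0.92, adjusted p = 0.00884). Col1a1 had a log2 fold change of 0.98 with an adjusted p of 0.0618. Of 13 genes of collagen turnover and cofactor supply, 3 rose and 0 fell, with the protease inhibitor Timp1 (1.52, adjusted p = 0.0175), the collagen-degrading Ctsk (1.24, adjusted p = 0.0182) and Timp2 (0.54, adjusted p = 0.0428). Of 9 TGF-beta ligands and targets, 2 rose and 0 fell, the latent binding protein Ltbp2 (2.78, adjusted p = 0.0384) and Tgfb1 (0.42, adjusted p = 0.0402). Of 18 HIF target genes, 2 rose and 0 fell, the glycolytic enzyme Ldha (0.59, adjusted p = 0.00706) and the mitophagy receptor Bnip3 (0.71, adjusted p = 0.0103), and the median of that list was −0.07. In RV-H against RV-N, DESeq2 called 6 substrates, 5 genes of turnover, 4 of the TGF-beta list and 3 of the HIF list higher. With limma on log2(TPM + 1) they were 3, 2, 0 and 3, again without a share of all genes. In the LV edgeR called the same 2 genes of the HIF list as in the RV, Ldha (0.55) and Bnip3 (0.75), each with an adjusted p of 0.032. The other lists had 0 calls in LV-H against LV-N by edgeR. Before adjustment, at a threshold of 0.05, 8 genes of fibril assembly, 5 of folding, 5 of turnover, 3 substrates and 2 of the TGF-beta list were higher there, and 1 of export was lower, beside 8.72% of all genes higher and 8.87% lower. DESeq2 called 3 of fibril assembly, 3 of folding and 1 of turnover higher, beside 2.29% of all genes, and limma called 1 of fibril assembly.

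Markers of other cell types were read in the same comparison. All 13 fibroblast markers were found, and 2 of them, Lum and Dcn, also stand in the list of fibril assembly. Their sum was 1310 to 1790 scaled TPM in RV-H and 1600 to 1860 in RV-N, which overlap, but the list was split. By edgeR 6 markers were higher and 1 lower in RV-H, with a median log2 fold change of 0.86. The lower one, named after its values were seen, was the abundant actin-severing gene Gsn, at 439, 429 and 472 scaled TPM in RV-H against 870, 916 and 812 in RV-N, and it weighs on the sum. RV-H replicate 4, low in 8 of the members, also had the lowest fibroblast sum of RV-H. The macrophage and leukocyte sum was 154 to 227 scaled TPM in RV-H and 99.7 to 134 in RV-N, with 3 of 10 markers called higher and 0 lower. The sum of cardiac myocyte markers was 47500 to 62600 scaled TPM in RV-H and 62100 to 65200 in RV-N, with 0 of 11 called higher and 2 lower. The erythroid sum was 6380 to 10400 scaled TPM in RV-H and 3630 to 4550 in RV-N, with no overlap, though 0 of 5 markers were called by edgeR (4 were higher before adjustment, and DESeq2 called 1). The epicardial and mesothelial sum was 23.7, 17.8 and 5.73 scaled TPM in RV-H replicates 1, 2 and 4, against 8.72 to 18.7 in RV-N, so RV-H replicate 4 was also the lowest of all 6 RV libraries in this list. The endothelial sum was 225 to 256 scaled TPM in RV-H and 195 to 218 in RV-N, with no overlap. Of its 8 markers, 1 was called higher and 1 lower by edgeR. The smooth muscle and pericyte sum was 348 to 459 scaled TPM in RV-H and 299 to 512 in RV-N, with 0 of 8 markers called. No listed marker was at 0 in all 12 libraries. The part of such shifts in the rise of the members was not tested.

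The correlation between members was described over the 12 libraries. Pearson's r of log2 CPM was 0.42 to 0.95 (median 0.81) among the 36 pairs without Loxl4, lowest for Lox with Plod3. It was 0.62 to 0.95 (median 0.87) among the 15 pairs of the 6 genes called in the RV, a set chosen by a contrast within these libraries. For Loxl4 with the other 9 it was −0.49 to 0.3. These r values describe libraries that share groups and rats. The genes most like each member were Islr (0.989), Litaf and Kcnk6 for Loxl1, Col8a1 (0.955), Fzd2 and Bgn for Lox, Atp8b2 (0.976), Dbn1 and Clic1 for Loxl2, and Lbp (0.958), Plxdc2 and Ltbp3 for Loxl3. For Plod2 they were Serpinf1 (0.972), Pros1 and Bgn, for Plod1 Ptma (0.958), Ifitm1 and Bak1, and for Plod3 Impdh1 (0.949), Arpc5 and Adgre5. For P4ha1 they were Ssc5d (0.949), Nadk and Lmna, for Serpinh1 Tril (0.969), Mgat1 and Edem2, and for Loxl4 Smc1a (0.890) and Rusc2, the weakest likeness of the 10.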

How the data were processed

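The libraries were polyadenylated, stranded, single-read RNA-seq of snap-frozen ventricle. Per the labels and the methods, the authors quantified reads with kallisto 0.43.1 on the rat transcriptome (Rnor_6.0) and summed transcripts to genes. The deposited table holds TPM and estimated counts per gene and library; within each library the estimated counts were TPM times 1 constant, so they carry no length information of their own. Exposure was read from the letters CH and NT in the sample titles, taken as hypoxia and normoxia. Entries with a number for a name (27, with 0.0408% to 0.0621% of counts) were left out.

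Estimated counts were rounded and tested with edgeR 4.0.16 (R 4.3.3; filterByExpr, TMM, quasi-likelihood fit of 4 group means over 12 libraries, Benjamini-Hochberg over 13756 genes, threshold 0.05); the same steps were tested on simulated data. DESeq2 1.42.0, limma 3.58.1 on log2(TPM + 1) and log2(TPM + 0.1), RLE factors, library totals, other filters, the libraries of a comparison alone, and fits without each library were alternatives. The pairing of RV and LV comes from the same animal: residual correlations were 0.037 to 0.213 within rats and at most 0.042 between rats. P-values of the main fit rest on the spread between the 3 libraries of a group, estimated jointly over the 4 groups. RV and LV of the same rat are treated there as independent, and the rat block was an alternative. Of 185 listed genes 175 were found. The collagen sum used 2 genes, Col1a1 and Col3a1 (Col1a2 was not used here). Text names all members, up to 4 genes of each pathway list with the smallest adjusted p, and the 3 genes most like each member, of which 1 for Loxl4 is not reported here. Members and lists were chosen with earlier results of these data known. Promoters are RefSeq's, and their build GRCr8 differs from that of the counts.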

Additional observations from a re-analysis of the deposited data

How the results depend on the processing

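The count of members higher in RV-H against RV-N was 6, and 3 with the rat number as a block over the 2 numbers that both exposures share, which link different rats; it was 5 with library totals, with no low-count filter and with limma under either pseudocount, and 1 to 6 when 1 library was left out, in fits with fewer samples. The count higher in LV-H against LV-N was 0, but 2 with DESeq2, 2 with the filter of 1 CPM in 3 libraries and 0 to 2 without 1 library. The count higher in RV-H against LV-H was 0, but 1 with DESeq2 and 0 to 2 without 1 library. The rat block changed no count of calls with all libraries in. Without LV-H replicate 1 (a pairing of choices made after seeing the data), the count higher in RV-H against LV-H was 2 with no block and 0 with it.

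Signs changed only in values that had not passed. In RV-N against LV-N, Loxl4 was 0.07 with library totals, 0.03 with log2(TPM + 1) and 0.05 with log2(TPM + 0.1), and Plod1 was 0.14, 0.14 and 0.15 in those settings. Without 1 library, log2 fold changes ran from -0.33 to 0.11 for Loxl4 in RV-H against RV-N, from -0.05 to 0.63 for Lox and from -0.05 to 0.48 for Loxl3 in LV-H against LV-N, and from -0.06 to 0.33 for P4ha1 in RV-H against LV-H. In RV-N against LV-N they ran from -0.38 to 0.14 for Loxl4, from -0.18 to 0.09 for Plod1 and from -0.08 to 0.20 for Plod3. For the effect in RV minus that in LV they ran from -0.08 to 0.47 for Loxl3, from -0.08 to 0.20 for Plod3, from -0.28 to 0.11 for P4ha1 and from -0.04 to 0.38 for Serpinh1. The cause of these changes was not tested. With library totals, the log2 fold change over all genes had a median of 0.12, 0.17, 0.19, 0.13 and -0.06 in the 5 comparisons. Loxl3 and Loxl4 had the fewest estimated counts of the members, 16 to 82 per library.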
